A study of Homo sapiens with 4 samples.

Results

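The collagen, laminin and integrin genes are the genes whose symbols name a collagen chain, a laminin chain or an integrin subunit. They were picked from the count table by symbol alone, with 83 members among 28278 genes, of which 44 are collagen, 12 laminin and 27 integrin genes. RNA was sequenced from human liver cancer cells labelled HepG2, all infected with lentiviruses carrying Cas9 and all exposed to 10 µM Sorafenib, a kinase inhibitor used in advanced hepatocellular carcinoma, for 24 h. The 2 control libraries came from cells given a control sgRNA and the 2 libraries labelled sgUSP22 from cells given 1 sgRNA against *USP22*, a deubiquitinase gene. Both were stable, selected cell populations rather than single clones, no library without Sorafenib was analysed here, and the comparison asked which transcripts differed with the guide.

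Collagens are secreted as helical trimers of alpha chains. Fibrillar types build cables, type IV forms the sheet of the basement membrane, and other types bridge, anchor or span the cell membrane. Laminins are cross-shaped trimers of an alpha, a beta and a gamma chain that assemble on the cell surface and join with type IV collagen in the basement membrane. Integrins are the paired alpha and beta receptors through which cells hold on to both, and adaptor proteins link them to the actin cytoskeleton. The healthy liver sinusoid has little continuous basement membrane, while collagens and laminins accumulate in the scarred and the cancerous liver.

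The 4 libraries held 62030307 to 64728272 counts, and 3 counts, the most that a 0 allows, stood for 0.0463 to 0.0484 CPM, the count scaled to the size of its library, for counting error only. *USP22* itself stood at 16450 and 16537 counts with the control sgRNA and 20279 and 20368 in the libraries labelled sgUSP22. Its transcript was thus not lower there, and every direction below follows the label. The paper assessed the knockout by Western blot, that is on protein, which these counts do not measure. Markers of the labelled cell type were largely missing. Of 22 hepatocyte markers, 12 were listed at 0 in all 4 libraries, among them *ALB*, *APOA1* and *APOB*, and the list summed to 1.54 and 1.70 CPM in control libraries and 2.92 and 1.89 in the others. Of 12 fibroblast and mesenchymal markers, 11 were tested, with 2 called higher and 3 lower, and the list summed to 1383 and 1406 CPM in control and 1277 and 1305 CPM in the libraries labelled sgUSP22. Most of that sum was *VIM*, with a mean of 1073 CPM in control libraries and 818 CPM in the others. Within that list *DCN* went from 9.81 ± 0.606 to 78.2 ± 1.13 CPM (SD, n = 2), *FAP* from 16.3 ± 0.653 to 2.89 ± 0.0146 CPM, and *PDGFRA* was listed at 0 throughout. Of 7 epithelial markers, *CDH1* and *KRT19* were listed at 0 and 3 were tested, with 1 called higher (*CLDN7*). The other tested ones, *KRT8* and *KRT18*, were lower but short of 1.5-fold, with log2 fold changes of -0.37 and -0.43 (edgeR, adjusted p = 1.25e-05 and 4.89e-06). The list, mostly *KRT8* and *KRT18*, summed to 1791 and 1832 CPM in control and 1438 and 1377 CPM in the other libraries. The endothelial list summed to at most 0.657 CPM and the leukocyte list to at most 0.228 CPM in any library. What these markers contribute to the results below was not tested. With 1 kind of RNA per library, fewer cells that express a gene and less RNA per cell cannot be told apart.

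Of the 83 members, 56 had enough counts to be tested and 27 did not. The 27 comprised 8 genes listed at 0 in all 4 libraries and 19 that reached at most 14 counts in any library. They include *COL2A1*, the chain of cartilage fibrils, *ITGA4* and *ITGA8*, and all the leukocyte alpha subunits except *ITGAE*. Of the 56, 2 passed only through the control libraries (*ITGA10* and *ITGA11*) and 1 only through the libraries labelled sgUSP22 (*COL5A3*). Genes were called at an adjusted p below 0.05 from edgeR's quasi-likelihood test and a fold change of at least 1.5. By this rule 13 members were called higher, or 23.2%, where 8.88% of the 15150 tested genes were, and 9 were called lower, or 16.1%, where 7.25% of all tested genes were. The 9 include *ITGA10* and *ITGA11*, for which lower was the only direction open. By the adjusted p alone, 23 members were higher and 19 lower, where 26.8% and 25.8% of all tested genes were. The median absolute log2 fold change was 0.50 among the 56 members and 0.29 among all tested genes. Values below are given as raw counts in each library, and as CPM after TMM scaling with SD and n = 2.

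**Figure D1:**
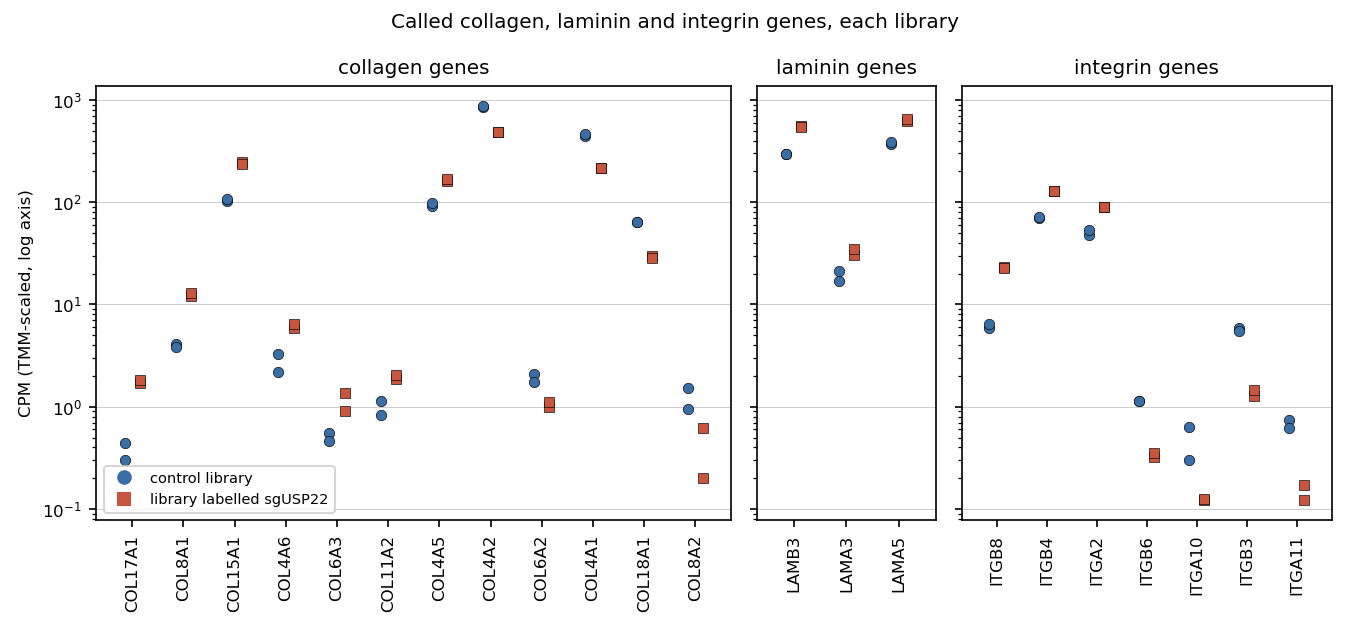
Each point is 1 library, with CPM after TMM scaling on a log axis, for the 22 called collagen, laminin and integrin genes ordered within each family from the largest increase to the largest decrease. In all 22 genes the 2 control libraries (circles) and the 2 libraries labelled sgUSP22 (squares) do not overlap. The genes were picked by their calls on these same libraries, so this is only a description. The points of a pair lie farthest apart in the low-count genes *COL8A2*, *COL6A3* and *ITGA10*.

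Type IV collagen, the network former of basement membranes, changed in composition. Its 6 chain genes lie in 3 pairs, and the members of each pair point away from each other from nearby start sites. In RefSeq on GRCh38.p14, 126 bases separate the starts of *COL4A1* and *COL4A2* on chromosome 13, 418 separate *COL4A4* and *COL4A3* on chromosome 2, and 379 separate *COL4A6* and *COL4A5* on chromosome X. RefSeq gives 2 upstream windows for *COL4A6*, of which the nearer was used. The DNA between the RefSeq starts is shown because it lies upstream of both partners there, as the longest stretch of up to 250 bases on the plus strand that holds no base of a GENCODE exon. By the longest GENCODE span, however, the stretch on chromosome 13 lies inside *COL4A2*, which starts at 110305812, and that on chromosome 2 inside *COL4A4*, which reaches to 227164453, while that on chromosome X lies outside both partners. Capitals mark the letters GGGCGG (GC box) and CCAAT, searched on both strands together with TATAAA, and these did not overlap.
COL4A1 and COL4A2, chr13:110307158-110307257: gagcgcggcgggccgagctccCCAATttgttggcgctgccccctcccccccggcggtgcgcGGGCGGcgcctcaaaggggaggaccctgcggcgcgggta
COL4A4 and COL4A3, chr2:227164206-227164395: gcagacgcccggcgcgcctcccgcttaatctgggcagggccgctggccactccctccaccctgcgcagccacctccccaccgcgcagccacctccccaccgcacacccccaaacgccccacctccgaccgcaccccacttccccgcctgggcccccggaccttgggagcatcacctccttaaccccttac
COL4A6 and COL4A5, chrX:108439543-108439792: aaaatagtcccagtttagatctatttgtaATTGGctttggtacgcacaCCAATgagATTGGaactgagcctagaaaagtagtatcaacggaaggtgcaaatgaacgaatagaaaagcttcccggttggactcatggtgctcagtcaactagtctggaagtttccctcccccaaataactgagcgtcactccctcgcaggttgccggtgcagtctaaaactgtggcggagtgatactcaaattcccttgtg

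The *COL4A1* and *COL4A2* stretch held 1 CCAAT and 1 GGGCGG, which 18.7% and 31.3% of 27305 RefSeq windows of the same 100 bases upstream of a start held. The *COL4A6* and *COL4A5* stretch held 3 CCAAT and no GGGCGG, where 33.0% and 42.3% of windows of 250 bases held them. The *COL4A4* and *COL4A3* stretch of 190 bases held neither, where 27.9% and 39.4% of windows of that length held CCAAT and GGGCGG. None of the 3 stretches held TATAAA, which was in 5.34%, 8.53% and 11.1% of windows of 100, 190 and 250 bases.

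The pair that makes the common type IV network fell. *COL4A1* (chromosome 13, 110148963 to 110307157 in GENCODE, minus strand) fell from 27210 and 29232 counts in control libraries to 14158 and 13790 in those labelled sgUSP22, a log2 fold change of -1.09 (edgeR, SE 0.037, adjusted p = 2.82e-08). *COL4A2* (chromosome 13, 110305812 to 110513209, plus strand) had 51755 and 54678 against 31903 and 31118 counts, a log2 fold change of -0.83 (edgeR, SE 0.032, adjusted p = 5.61e-08). In both genes each library labelled sgUSP22 lay far below both control libraries, which only describes genes named for their calls. The annotated spans of *COL4A1* and *COL4A2* overlap on opposite strands, and since no strand setting is given in the sources used here, reads from that overlap cannot be assigned for certain.

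The pair on chromosome X rose. *COL4A5*, whose chain supports the kidney filter and is mutated in Alport syndrome, had 5587 and 6114 counts in control libraries and 10643 and 10771 counts in those labelled sgUSP22, a log2 fold change of 0.79 (edgeR, SE 0.044, adjusted p = 6.09e-07). Its neighbour *COL4A6*, found with it in basement membranes of smooth muscle and skin, had 133 and 203 against 384 and 418 counts, a log2 fold change of 1.18 (edgeR, SE 0.20, adjusted p = 0.000713). The control libraries of *COL4A6* differed more from each other than those of *COL4A5*. The pair on chromosome 2 encodes the chains that join the *COL4A5* chain in the kidney filter and moved little. *COL4A4* had 1096 and 1049 against 1494 and 1487 counts and rose with a log2 fold change of 0.40 (edgeR, SE 0.081, adjusted p = 0.00242), short of 1.5-fold. *COL4A3* had 509 and 483 against 592 and 581 counts and did not pass (log2 fold change 0.16, edgeR, SE 0.11, adjusted p = 0.257).

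Levels of different genes were compared per kilobase of the canonical GENCODE transcript. On this scale *COL4A1* and *COL4A2* together made up 92.1% and 92.0% of the 6 type IV chains in control libraries and 78.8% and 78.2% in those labelled sgUSP22. The share of *COL4A5* went from 6.46% and 6.65% to 18.1% and 18.6%. The summed level of the 6 chains went from 217 and 226 to 137.3 and 137.4 CPM per kilobase, and *COL4A2* stayed the most abundant chain in every library.

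**Figure D2:**
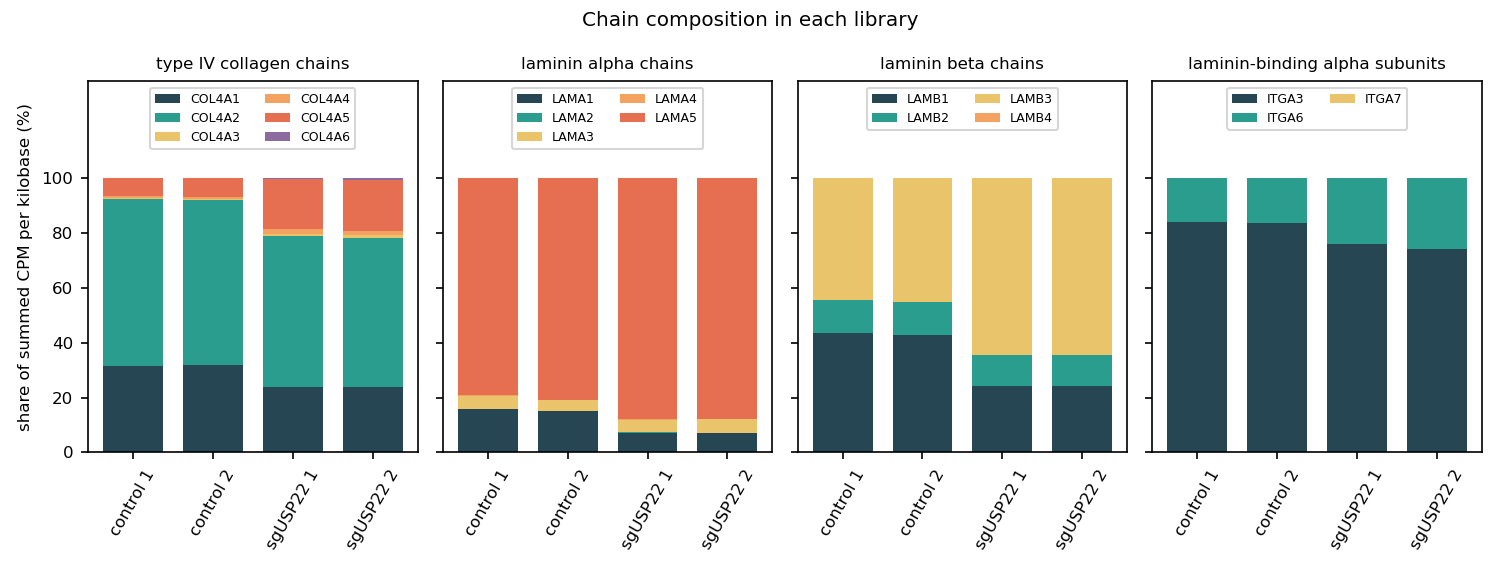
Stacked bars give, for each of the 4 libraries, the share in percent of each chain in the summed CPM per kilobase of transcript of its set, for the type IV collagen chains, the laminin alpha chains, the laminin beta chains and the laminin-binding integrin alpha subunits. *COL4A5* takes 6.46% and 6.65% of the type IV chains in control libraries and 18.1% and 18.6% in those labelled sgUSP22, and *LAMB3* grows from 44.4% and 45.1% to 64.7% of the beta chains in both.

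The multiplexins, collagens of the basement membrane zone whose C-terminal fragments are released as restin and endostatin, moved in opposite directions. *COL15A1* (chromosome 9, 98943179 to 99070792, plus strand) had 6293 and 6672 counts in control libraries and 16155 and 15243 in those labelled sgUSP22, a log2 fold change of 1.20 (edgeR, SE 0.040, adjusted p = 2.79e-08). *COL18A1* (chromosome 21, 45405165 to 45513720, plus strand), the source of endostatin, had 3886 and 4031 against 1969 and 1850 counts, a log2 fold change of -1.13 (edgeR, SE 0.053, adjusted p = 2.3e-07). Per kilobase, *COL15A1* made up 62.6% and 63.2% of the pair in control libraries and 89.5% in both libraries labelled sgUSP22. The span of *COL18A1* overlaps *SLC19A1* on the opposite strand, which had 2450, 2600, 2347 and 2030 counts in the same order of libraries.

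The abundant fibrillar collagens moved little. Of the 11 fibrillar chain genes 7 were tested, 1 was called higher and 0 lower. That is 14.3% called, close to the 16.1% of all tested genes, so the count only describes which gene it was. *COL5A1*, whose chain nucleates and limits the width of fibrils, had 51511 and 53744 counts against 59075 and 57759, a log2 fold change of 0.07 that did not pass (edgeR, SE 0.029, adjusted p = 0.064). *COL3A1*, the fibrillar collagen of distensible tissues, had 30410 and 31662 against 37872 and 36728 counts, a log2 fold change of 0.19 (edgeR, SE 0.031, adjusted p = 0.0007). *COL5A2*, the partner of *COL5A1*, had a log2 fold change of 0.13 (edgeR, SE 0.036, adjusted p = 0.0131). After correction for GC content and transcript length, *COL5A2* was at 0.04 and did not pass (edgeR, adjusted p = 0.373). The largest of these 3 differences, that of *COL3A1*, was 1.14-fold. The third type V chain, *COL5A3*, was near the limit of detection with 8, 19, 31 and 33 counts (adjusted p = 0.119, edgeR). The fibrillar gene that was called, *COL11A2*, a minor chain of cartilage fibrils, had 69 and 52 against 122 and 132 counts, a log2 fold change of 0.99 (edgeR, SE 0.27, adjusted p = 0.0113), and its partners *COL11A1* and *COL2A1* were not tested. The adjusted p of *COL11A2* was 0.0618 without control replicate 2 and 0.0587 without sgUSP22 replicate 2.

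The chains of type I collagen, the main collagen of bone, skin and scar, were looked up after their values were seen. *COL1A1* had 3492 and 3426 counts in control libraries and 3738 and 4125 in the others (adjusted p = 0.175, edgeR), while *COL1A2* was listed at 0, 0, 7 and 0 counts. The usual type I trimer is built of both chains, and *COL1A1* made up at least 99.8% of the summed level per kilobase in every library.

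Other collagens of the matrix and the cell surface changed in both directions. *COL8A1*, a short-chain network collagen of vessel walls, had 253 and 239 counts in control libraries and 791 and 843 in those labelled sgUSP22, a log2 fold change of 1.65 (edgeR, SE 0.12, adjusted p = 3.22e-06). Its partner chain *COL8A2* had 58 and 95 against 41 and 13 counts, a log2 fold change of -1.58 (edgeR, SE 0.51, adjusted p = 0.0252). The counts of *COL8A2* were few and uneven. Its log2 fold change was -2.62 (adjusted p = 0.00279) without sgUSP22 replicate 1, -0.99 (0.105) without sgUSP22 replicate 2 and -1.20 (0.142) without control replicate 2, and its adjusted p was 0.0945 with no filter. *COL17A1*, the membrane-spanning collagen of hemidesmosomes, had 27 and 19 counts against 112 and 118, a log2 fold change of 2.24 (edgeR, SE 0.33, adjusted p = 0.00031). It lies on chromosome 10 from 104031286 to 104085880, within the stretch beyond 40 Mb where the log2 fold changes of 324 expressed genes had their median at -0.42.

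Type VI collagen, a beaded microfibril of *COL6A1*, *COL6A2* and *COL6A3* chains, split by chain. *COL6A1* had 1313 and 1438 counts in control libraries and 2039 and 2063 in those labelled sgUSP22 and rose with a log2 fold change of 0.50 (edgeR, SE 0.072, adjusted p = 0.000278), short of 1.5-fold. *COL6A2* had 128 and 109 against 65 and 71 counts, a log2 fold change of -0.88 (edgeR, SE 0.26, adjusted p = 0.0161), and *COL6A3* had 34 and 29 against 90 and 59 counts, a log2 fold change of 1.16 (edgeR, SE 0.37, adjusted p = 0.0243). Per kilobase, *COL6A1* made up 88.6% to 94.9% of the 3 chains in every library. The low-count chains lost their calls with DESeq2, at adjusted p = 0.0808 for *COL6A2* and 0.0943 for *COL6A3*. The adjusted p of *COL6A2* was 0.0904 without control replicate 1 and 0.071 without sgUSP22 replicate 1, and that of *COL6A3* was 0.0836 without control replicate 2 and 0.21 without sgUSP22 replicate 1.

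Of the other abundant collagens, *COL7A1*, which forms the anchoring fibrils under epithelia, fell from 41809 and 43411 to 31760 and 32156 counts, a log2 fold change of -0.49 (edgeR, SE 0.032, adjusted p = 1.59e-06). *COL12A1*, a collagen that decorates fibrils, had 41193 and 42084 against 50886 and 50857 counts, a log2 fold change of 0.21 (edgeR, SE 0.030, adjusted p = 0.000243), which became 0.02 with an adjusted p of 0.506 after correction for GC content and transcript length. Neither reached 1.5-fold. By the mean level of both groups, the most abundant collagens were *COL4A2*, *COL5A1*, *COL3A1*, *COL7A1* and *COL12A1*, with 104, 104, 98.0, 64.0 and 62.1 CPM per kilobase. The order differed by group, since *COL4A2* was at 134 CPM per kilobase in control libraries, above *COL5A1* at 101, and at 75.1 in those labelled sgUSP22, below *COL5A1* at 106 and *COL3A1* at 104. Summed over all 44 collagen genes, the counts came to 4573 and 4666 CPM in control libraries and to 4229.9 and 4246 CPM in those labelled sgUSP22.

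**Figure D3:**
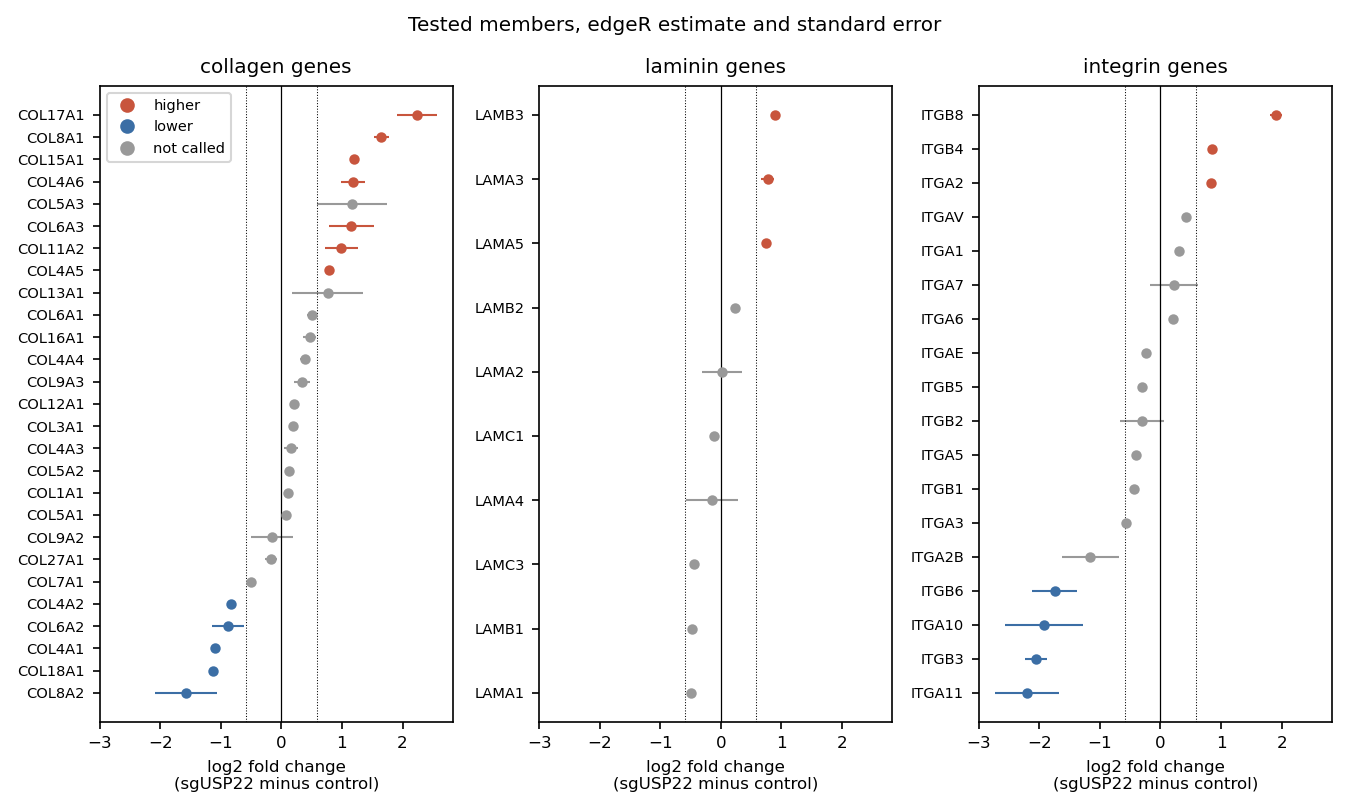
Points give the log2 fold change of tested members, libraries labelled sgUSP22 minus control, and bars its standard error, with dotted lines at 1.5-fold in either direction and colours for the calls. Collagen genes spread from -1.58 (*COL8A2*) to 2.24 (*COL17A1*), laminin genes from -0.49 (*LAMA1*) to 0.89 (*LAMB3*) and integrin genes from -2.21 (*ITGA11*) to 1.91 (*ITGB8*).

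Laminin chains changed in composition, with 3 of 11 tested genes called higher and 0 lower, where 8.88% and 7.25% of all tested genes were. *LAMA5*, the widespread alpha chain of mature basement membranes, had 22699 and 23906 counts in control libraries and 41182 and 41620 in those labelled sgUSP22, a log2 fold change of 0.75 (edgeR, SE 0.034, adjusted p = 1.73e-07). *LAMB3*, a beta chain of the epithelial laminin that anchors hemidesmosomes, had 17833 and 18432 against 36189 and 34879 counts, a log2 fold change of 0.89 (edgeR, SE 0.033, adjusted p = 4.83e-08). *LAMA3*, the alpha chain of that same laminin, had 1298 and 1065 against 2013 and 2247 counts, a log2 fold change of 0.77 (edgeR, SE 0.11, adjusted p = 0.000229). Each of these 3 genes had both libraries labelled sgUSP22 above both control libraries, which only describes genes named for their calls. *LAMA5* lies on chromosome 20 from 62307955 to 62367312 and *LAMB3* on chromosome 1 from 209614870 to 209652425, both on the minus strand. *ADRM1*, which overlaps *LAMA5* on the opposite strand, had 6783, 7175, 7260 and 7125 counts.

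In the embryonic laminin, the alpha and beta chain genes fell, short of 1.5-fold, and the gamma chain gene moved less. *LAMA1*, its alpha chain, had 3787 and 3725 counts in control libraries and 2840 and 2793 in those labelled sgUSP22, a log2 fold change of -0.49 (edgeR, SE 0.050, adjusted p = 2.62e-05). *LAMB1*, its beta chain, had 24602 and 24484 against 18998 and 18295 counts, a log2 fold change of -0.48 (edgeR, SE 0.034, adjusted p = 2.82e-06). *LAMC1*, the gamma chain of most laminins, took 88.4% to 90.6% of the gamma chains per kilobase in every library. It had 40362 and 42911 against 40898 and 39987 counts, a log2 fold change of -0.12 (edgeR, SE 0.032, adjusted p = 0.0107), and with library size alone it did not pass (adjusted p = 0.0912), nor without control replicate 2 (0.0618). *DLD*, which overlaps *LAMB1* on the opposite strand, had 6877, 6829, 7985 and 7748 counts. A further gamma chain gene, *LAMC3*, fell from 4799 and 5179 to 3925 and 3842 counts, a log2 fold change of -0.44 (edgeR, SE 0.047, adjusted p = 3.6e-05). *LAMB2*, the beta chain of adult muscle and kidney basement membranes, rose with a log2 fold change of 0.24 (edgeR, SE 0.037, adjusted p = 0.00045). *LAMA2* and *LAMA4*, the alpha chains of muscle and of vessel walls, had 27 to 58 counts in every library and did not pass (adjusted p of 0.972 and 0.798, edgeR), and *LAMB4* was listed at 0.

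Per kilobase, *LAMB1* and *LAMB3* were close to each other in control libraries, with 43.5% and 42.6% of the beta chains for *LAMB1* and 44.4% and 45.1% for *LAMB3*. In the libraries labelled sgUSP22 *LAMB1* had 24.1% in both and *LAMB3* 64.7% in both. Among the alpha chains *LAMA5* went from 79.1% and 80.8% to 88.0% and 87.7%, and *LAMA1* from 15.6% and 14.9% to 7.19% and 6.97%. Summed over the 12 laminin genes, the counts came to 2007 and 2036 CPM in control libraries and to 2359 and 2360.3 CPM in those labelled sgUSP22.

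Among integrin subunits the abundant genes shifted by less than 1.5-fold, while several of low and middle abundance changed 1.79-fold or more. *ITGB1*, the beta subunit shared by most collagen, laminin and fibronectin receptors and the most abundant integrin gene per kilobase, fell from 57960 and 59479 to 46438 and 45273 counts, a log2 fold change of -0.44 (edgeR, SE 0.029, adjusted p = 1.85e-06). *ITGA5*, the alpha subunit of the classical fibronectin receptor, fell from 32351 and 33818 to 26774 and 26081 counts, a log2 fold change of -0.40 (edgeR, SE 0.032, adjusted p = 5.32e-06). *ITGB5*, a vitronectin receptor subunit, fell from 20365 and 21027 to 18030 and 17539 counts, a log2 fold change of -0.30 (edgeR, SE 0.033, adjusted p = 4.78e-05). The decreases of these 3 genes were 1.35-fold, 1.32-fold and 1.23-fold.

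Receptors for laminin moved in different directions by subunit. *ITGB4*, the beta subunit of hemidesmosomes that pairs only with *ITGA6*, had 4237 and 4499 counts in control libraries and 8356 and 8276 in those labelled sgUSP22, a log2 fold change of 0.85 (edgeR, SE 0.041, adjusted p = 2.62e-07). *ITGA6* had 8083 and 8758 against 9993 and 10493 counts, a log2 fold change of 0.20 (edgeR, SE 0.046, adjusted p = 0.00403), which was 0.05 with an adjusted p of 0.362 after correction for GC content and transcript length. *ITGA3*, which pairs with *ITGB1* to bind *LAMA3* and *LAMA5* laminins, fell from 35722 and 37354 to 26505 and 25321 counts, a log2 fold change of -0.57 (edgeR, SE 0.033, adjusted p = 7.68e-07), just under 1.5-fold. Per kilobase *ITGA3* went from 83.9% and 83.5% to 75.8% and 74.1% of the laminin-binding alpha subunits, *ITGA6* from 15.97% and 16.4% to 24.0% and 25.8%, and *ITGA7*, the muscle subunit, stayed at or under 0.146%. *ITGB4* (chromosome 17, 75721328 to 75757818, plus strand) overlaps *GALK1* on the opposite strand, which had 2002, 2209, 1830 and 1471 counts.

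The alpha subunits that bind collagen are *ITGA1*, *ITGA2*, *ITGA10* and *ITGA11*. *ITGA2*, the collagen receptor of platelets and epithelia, had 2893 and 3299 counts in control libraries and 5834 and 5842 in those labelled sgUSP22, a log2 fold change of 0.84 (edgeR, SE 0.056, adjusted p = 1.91e-06). Over all settings tried, that of *ITGA2* ranged from 0.59 to 0.92. *ITGA1*, which prefers type IV collagen, had 10183 and 10884 against 13526 and 13810 counts, a log2 fold change of 0.30 (edgeR, SE 0.040, adjusted p = 0.000155). After correction for GC content and transcript length, *ITGA1* was at -0.03 (adjusted p = 0.555), and *PELO*, with 3547, 3471, 3654 and 3269 counts, overlaps its span on the same strand. *ITGA11*, a fibroblast receptor for fibrillar collagen, had 45 and 39 against 8 and 11 counts, a log2 fold change of -2.21 (edgeR, SE 0.53, adjusted p = 0.00573). *ITGA10*, the cartilage receptor, had 39 and 19 against 8 and 8 counts, a log2 fold change of -1.92 (edgeR, SE 0.64, adjusted p = 0.0295). Both were tested only because their control libraries passed the minimum, so a lower value in the other libraries was the only direction open to them, and their calls are given as a description. The call of *ITGA10* was lost with DESeq2 (adjusted p = 0.0997), with no filter (0.0579) and with the replicate number as a block (0.0534), and without control replicate 1 its log2 fold change was -1.30 with an adjusted p of 0.312, while its adjusted p was 0.109 without sgUSP22 replicate 1 and 0.107 without sgUSP22 replicate 2. The share of *ITGA2* among these subunits, per kilobase, went from 27.7% and 29.2% to 37.1% and 36.6%.

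The receptors built on *ITGAV*, which bind the RGD motif of vitronectin, fibronectin and latent TGF-beta, differed in their rarer beta subunits. *ITGAV* itself had 11027 and 11824 counts in control libraries and 16377 and 15919 in those labelled sgUSP22, a log2 fold change of 0.42 (edgeR, SE 0.038, adjusted p = 1.12e-05). Over all settings tried, that of *ITGAV* ranged from 0.14 to 0.47. *ITGB8*, which activates latent TGF-beta, had 359 and 398 against 1532 and 1473 counts, a log2 fold change of 1.91 (edgeR, SE 0.096, adjusted p = 3.32e-07). *ITGB3*, the beta subunit of the vitronectin and the platelet fibrinogen receptor, had 361 and 345 against 84 and 95 counts, a log2 fold change of -2.06 (edgeR, SE 0.18, adjusted p = 9.18e-06). *ITGB3* and *ITGB8* thus changed by 4.16-fold down and 3.76-fold up, from control counts in the same range. *ITGB6*, the epithelial activator of TGF-beta, had 69 and 71 against 21 and 23 counts, a log2 fold change of -1.74 (edgeR, SE 0.37, adjusted p = 0.00294). Among *ITGB3*, *ITGB5*, *ITGB6* and *ITGB8*, per kilobase, *ITGB5* held 95.5% to 97.6% in every library, *ITGB8* went from 0.851% and 0.914% to 4.02% and 3.97%, and *ITGB3* from 1.29% and 1.20% to 0.333% and 0.387%. *ITGB8* lies on chromosome 7 from 20330702 to 20415754, in the stretch from 10 to 40 Mb where the log2 fold changes of 81 expressed genes had their median at -0.27, and *ITGB3* on chromosome 17 from 47253827 to 47313743. The platelet subunit *ITGA2B*, which pairs with *ITGB3*, had 48, 56, 15 and 34 counts and did not pass (adjusted p = 0.065, edgeR). Without sgUSP22 replicate 2 its log2 fold change was -1.88 with an adjusted p of 0.024.

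**Figure D4:**
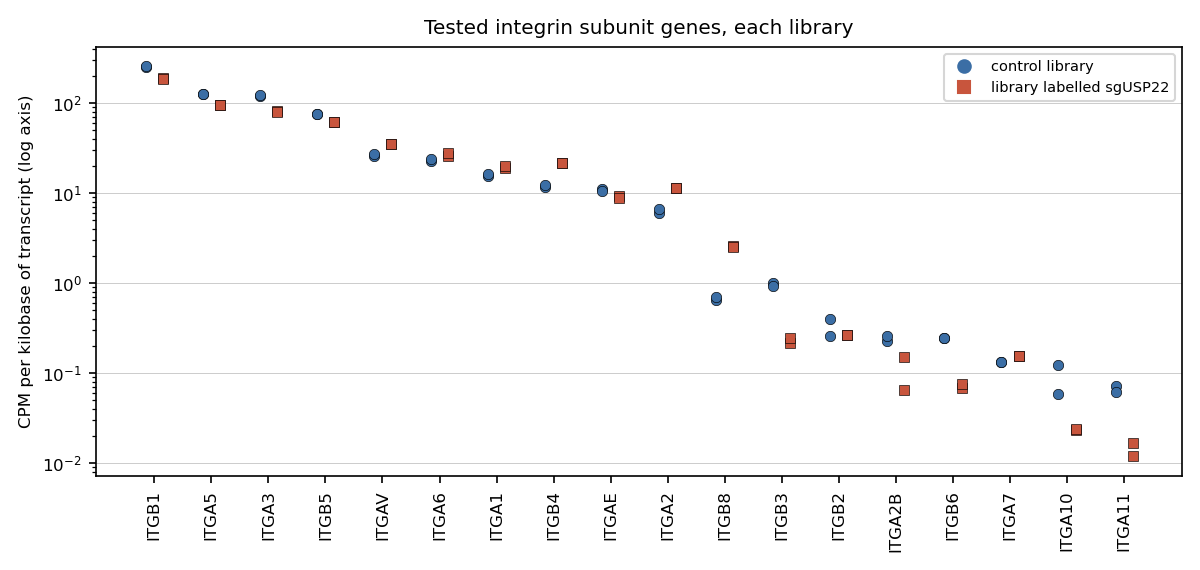
Each point is 1 library, with the level of the 18 tested integrin genes in CPM per kilobase of the canonical transcript on a log axis, ordered by their mean. *ITGB1* is the highest, with 255 CPM per kilobase in control libraries (circles) and 188 in those labelled sgUSP22 (squares), and *ITGB8* and *ITGB3* exchange places between the groups.

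Summed over the 27 integrin genes, the counts came to 3057 and 3118 CPM in control libraries and to 2678 and 2672 CPM in those labelled sgUSP22. Of the 7 leukocyte integrin genes 5 were not tested, and *ITGAE* and *ITGB2* were not called. *ITGBL1*, whose name matches the symbol rule although it encodes an integrin-like secreted protein and no receptor subunit, was listed at 0, 0, 0 and 7 counts.

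Beyond these families, a list of 128 genes that make, cut, bind or sense the matrix was examined, of which 111 were tested. Of them 6 were called higher and 11 lower, or 5.41% and 9.91%, where 8.88% and 7.25% of all tested genes were. In all 15.3% of the list was called, close to the 16.1% of all tested genes, so the counts by role below only describe which genes these were. The median log2 fold change of the list was -0.10, against 0.00091 for all tested genes. Of the enzymes that fold and crosslink collagen, 0 of 25 tested were called higher and 1 lower (*P4HA3*, a prolyl hydroxylase subunit, log2 fold change -1.28, edgeR, SE 0.40, adjusted p = 0.0222). The integrin adaptors had 1 of 36 called higher and 1 lower. Matrix glycoproteins had 2 of 18 called higher and 4 lower, the other matrix receptors 2 of 16 higher and 0 lower, and proteases with their inhibitors 1 of 16 higher and 5 lower.

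Among the glycoproteins, *FN1*, or fibronectin, a ligand of *ITGA5* and *ITGAV* receptors, had 17036 and 17441 counts in control libraries and 40015 and 39528 in those labelled sgUSP22, a log2 fold change of 1.13 (edgeR, SE 0.032, adjusted p = 8.85e-09). *FBN2*, a microfibril protein with an RGD motif, had 4110 and 4591 against 12753 and 12903 counts, a log2 fold change of 1.48 (edgeR, SE 0.048, adjusted p = 2.26e-08). *EDIL3*, a secreted ligand of *ITGAV* receptors, fell from 14363 and 14520 to 5518 and 5710 counts, a log2 fold change of -1.44 (edgeR, SE 0.040, adjusted p = 8.78e-09). *SPARC*, a collagen-binding protein, was low, with 67 and 62 against 19 and 26 counts, a log2 fold change of -1.59 (edgeR, SE 0.39, adjusted p = 0.00667). The nidogens *NID1* and *NID2*, which tie laminin to type IV collagen, reached at most 14 counts and were not tested.

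Most called proteases of the matrix were lower. *PLAT*, the tissue plasminogen activator, fell from 4491 and 4661 to 1835 and 1549 counts, a log2 fold change of -1.51 (edgeR, SE 0.070, adjusted p = 2.15e-07). *MMP17*, a membrane-bound metalloprotease, fell from 904 and 988 to 253 and 174 counts, a log2 fold change of -2.23 (edgeR, SE 0.16, adjusted p = 2.96e-06). The gelatinase *MMP2* and its activator *MMP14* were lower as well, with log2 fold changes of -1.87 (edgeR, SE 0.26, adjusted p = 0.000225) and -1.64 (edgeR, SE 0.39, adjusted p = 0.00534). *MMP7*, or matrilysin, was listed at 0 in both control libraries and had 34 and 20 counts in those labelled sgUSP22, at least 8.50-fold higher when each control library is set to 3 counts. It passed the minimum only through the libraries in which it was high, so this is a description. Of the receptors, the tetraspanin *TSPAN1* rose from 228 and 206 to 638 and 536 counts, a log2 fold change of 1.35 (edgeR, SE 0.14, adjusted p = 3.68e-05).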

How the data were processed

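The authors aligned reads to hg38 with HISAT2 2.2.1, sorted them with Samtools 1.6 and deposited whole-number gene counts from StringTie 2.2.1, not divided by library size. The annotation and strand setting are not given in the sources used here. StringTie derives counts from coverage, so low values are coarse. Each of the 4 columns matched a sample by name.

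The tests used edgeR 4.0.16 under R 4.3.3, with TMM scaling, filterByExpr at a minimum count of 10 (0.158 CPM), glmQLFit and glmQLFTest, with Benjamini-Hochberg adjustment over the 15150 genes tested. The thresholds, adjusted p below 0.05 and 1.5-fold, are those of the paper. SE was obtained from the fold change and the F statistic, as |log2 fold change| over √F. DESeq2 1.42.0 was an alternative. The procedures were tested on simulated data. Of 28278 symbols, 25763 matched GENCODE 44, which gave positions, canonical transcript lengths and GC content. RefSeq upstream windows matched 59 of the 83 members.

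Genes named are the called members, the most abundant per kilobase, their partner chains, and the 12 largest changes among called genes of the wider list. Some genes so chosen are not reported here, and counts over lists include them. Members, lists and regions were chosen with earlier results of these data known. Replicates were not duplicates of each other: the chi-square between them averaged 7.86 (control) and 8.25 (sgUSP22) over genes. Nothing says that they were separate cultures, so p-values measure only the spread between these libraries.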

Additional observations from a re-analysis of the deposited data

How the results depend on the processing

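The calls of 13 members higher and 9 lower stayed within 1.5 times under DESeq2 (12 and 7), under RLE scaling or none beyond library size, unfiltered (13 and 7), at a mean count of 50 or more (13 and 6), and after GC and length correction (14 and 11). Dropping the fold threshold gave 23 and 19 members, and testing against 1.5-fold itself gave 10 and 5, since these rules are looser and stricter by design. For all genes these rules gave 4057 and 578 higher and 3904 and 428 lower, and for the wider matrix list 30 higher, 48 lower and, against 1.5-fold, 5 lower. With each library left out, where a lone library is assumed to vary like the others, 11 to 13 members were higher and 8 to 9 lower. With library size alone 62.3% of all calls were higher, against 55.1%, and the median of all genes moved to 0.053.

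The replicate numbers share no stated batch, and same-numbered deviations had a correlation of 0.042 across genes. With the replicate block 13 members were higher and 8 lower, and *ITGA10* was lost.

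Of 377 comparisons of 48 named members with another setting of 4 libraries, 337 kept their direction and side of the adjusted p. After the GC and length correction *ITGA1* (-0.027) and *LAMA2* (-0.15) turned, and *ITGB1*, *LAMA1* and *COL6A1* were called. With 1 library left out *LAMA2* ranged from -0.050 to 0.084 and turned without control replicate 1 or sgUSP22 replicate 1, and *LAMA4* ranged from -0.62 to 0.19 and turned without sgUSP22 replicate 1. The causes were not tested. *COL6A2*, *COL6A3*, *COL8A2*, *COL11A2* and *ITGA10* lost their calls with 1 or more libraries left out in turn.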
